A study of Rattus norvegicus with 6 samples.

Results

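The guide strands of the miR-183/96/182 cluster, rno-miR-183-5p, rno-miR-96-5p and rno-miR-182, were examined in plasma exosomes of rats. All 3 were found by name among the 763 mature rat miRNAs of the deposited count table. Exosomes are secreted vesicles whose cargo includes RNA, and a miRNA is a short RNA that represses transcripts matching its seed, bases 2 to 8 from its 5′ end. Small RNA libraries were made from exosomes of male Sprague-Dawley rats that underwent no preconditioning (C-exo, 3 libraries) and of rats given remote ischemic pre-conditioning and sampled in its late phase (RIPC; R-exo, 3 libraries). RIPC was 4 cycles of 5 min of ischemia and 5 min of reperfusion of both hind limbs under anesthesia. Blood of both groups was drawn under anesthesia 48 h later. The comparison of R-exo with C-exo asks which exosomal miRNAs differ after RIPC. Neither the labels nor the methods say whether a library came from 1 rat or from pooled plasma, so the p-values measure the spread between these libraries.

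The cluster is transcribed as a single unit in vertebrates and is best known from sensory organs, where photoreceptors, hair cells of the inner ear and sensory neurons express it. Seed changes in miR-96 cause progressive hearing loss in people and mice. Members of the cluster are also found in erythroid cells, in epithelia and in activated lymphocytes, where miR-182 represses the transcription factor FOXO1. All 3 guides have closely related seeds and overlapping target sets.

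The mature sequences, from RefSeq on the rat assembly GRCr8, are shown because the seeds separate the members. Capitals mark the seed, bases 2 to 8.
miR-183-5p: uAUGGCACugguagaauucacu
miR-96-5p: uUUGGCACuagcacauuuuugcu
miR-182: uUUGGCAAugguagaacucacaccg
The 3 seeds differed from each other, and of the 693 mature rat sequences in the table no other shared bases 2 to 8 with a member. miR-182 and miR-96-5p shared bases 2 to 7 (UUGGCA) and first differed at A8C, where the base of miR-182 is written first and the 5′ base is position 1. Over the whole sequence miR-182 was closer to miR-183-5p, with 18 of 22 compared bases the same. Of their differences, U2A and A8C lie in the seed and C17U and A22U beyond it. miR-182 and miR-96-5p had 12 of 23 compared bases the same. Reads of 1 guide therefore differ from the other guides at 4 or more positions when compared without gaps.

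In GRCr8 the stem-loops lie on the minus strand of chromosome 4, Mir183 at chr4:59756044-59756153, Mir96 at chr4:59755841-59755946 and Mir182 at chr4:59752246-59752307. Mir183 and Mir96 are 97 bases apart and Mir96 and Mir182 are 3533 bases apart, so the cluster spans 3908 bases. It overlaps no protein-coding gene in the RefSeq table and lies between Nrf1 and Ube2h. The labels name the build rn6 for the processing, and no position was carried from one build to the other.

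RefSeq also places a stem-loop on the opposite strand of Mir183. Its mature product miR-3553, named here because its counts had been seen, is complementary to all 22 bases of miR-183-5p.
miR-3553: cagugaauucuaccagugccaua
miR-3553 had 0 counts in all 6 libraries, which allows up to 0.398 to 0.547 RPM (reads scaled to the library total) by the limit of 3 counts a library. The same libraries held between 525 and 2075 reads of miR-183-5p.

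The libraries held between 5484209 and 7531737 reads counted on miRNAs. In R-exo against C-exo, edgeR's quasi-likelihood test called no miRNA of 404 at an adjusted p under 0.05 (Benjamini-Hochberg; 0% of those tested), while 38 had an unadjusted p under 0.05. These 38, 9.41% of the tested miRNAs, were also past a fold change of 2, which is the criterion the study states, with 8 (1.98%) above and 30 (7.43%) below C-exo. Groups did not overlap for 12.9% of the tested miRNAs, and 48.8% had a log2 fold change above 0. Scaling to library size only gave 18 of 33 above C-exo, and upper quartile and RLE scaling 11 of 45 and 12 of 37. DESeq2, edgeR's exact test and limma-voom also called 0 miRNAs at an adjusted p under 0.05. Over the tested miRNAs C-exo replicate 3 had a Spearman's rho of 0.902 and 0.931 with the other C-exo libraries and of 0.965 to 0.983 with those of R-exo. C-exo replicate 3 stood apart from its group in this way, so values without it are given beside the results of each guide, their ratios and the lists. It was singled out by its likeness to R-exo, so leaving it out tends to widen the contrast. Calls made without it are therefore no independent support for a difference. Without C-exo replicate 3 the same edgeR test called 132 of 422 miRNAs at an adjusted p under 0.05 (31.3%), 73 of them higher in R-exo (17.3%). Each fit that left out another library instead called 0.

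Of the 3 guides, miR-183-5p and miR-182 were present at moderate levels and did not differ between groups beyond the spread of the libraries, and miR-96-5p was near the limit of detection. Their summed level was 261 ± 182 CPM in C-exo and 332 ± 157 CPM in R-exo (SD, n = 3 each), with overlapping groups. The log2 ratio of these means, 0.35, was 1.05 without C-exo replicate 3, -0.034 without R-exo replicate 2 and -0.00041 without C-exo replicate 2. CPM is the count scaled to the library size after TMM normalization. In plasma exosomes, fewer vesicles from a cell type and less of a miRNA in each vesicle cannot be told apart.

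miR-183-5p, the most abundant guide, had 159, 67.2 and 239 CPM in C-exo replicates 1, 2 and 3. In R-exo replicates 1, 2 and 3 it had 110, 298 and 153 CPM. R-exo replicate 2 was the highest library and C-exo replicate 2 the lowest, and 1 of 3 R-exo libraries exceeded every C-exo library. The group means were 155 ± 85.8 CPM in C-exo and 187 ± 98.3 CPM in R-exo (SD, n = 3 each). R-exo over C-exo was 0.27 on the log2 scale (95% interval -1.02 to 1.57, standard error 0.58), with a Benjamini-Hochberg adjusted p of 0.83 in edgeR's quasi-likelihood fit. An exact two-sided permutation test gave p = 0.7, where 3 libraries against 3 cannot give less than 0.1. The sign was negative without C-exo replicate 2 and without R-exo replicate 2, at -0.061 and -0.19 on the log2 scale.

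miR-182, the guide whose gene lies farthest from the others, had 60.7, 35.2 and 221 CPM in C-exo replicates 1, 2 and 3. It had 84.0, 205 and 144 CPM in the R-exo libraries in the same order. Every R-exo library exceeded C-exo replicates 1 and 2, whereas C-exo replicate 3 exceeded every R-exo library. The means were 106 ± 101 CPM in C-exo and 144 ± 60.5 CPM in R-exo (n = 3 each, SD). A log2 fold change of 0.45 had a 95% interval of -1.09 to 1.99 and a standard error of 0.69 (adjusted p = 0.77, edgeR quasi-likelihood fit). The exact permutation test of the CPM gave p = 0.6.

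The call for miR-182 turned on 1 control library. When C-exo replicate 3 was left out, R-exo was higher by 1.60 on the log2 scale (standard error 0.50, adjusted p = 0.027, edgeR quasi-likelihood fit), beside the 31.3% of all tested miRNAs called in that fit. miR-183-5p reached 0.74 in the same fit (standard error 0.52, adjusted p = 0.27 in the same edgeR test). Without C-exo replicate 2, the lowest library for miR-182, the change was 0.075 on the log2 scale. On the log2 CPM scale C-exo replicate 3 had 7.79 for miR-182, against a mean of 5.54 in the other C-exo libraries and 7.08 in R-exo. As this library was singled out by its likeness to R-exo, the fit without it is no independent support for a difference.

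miR-96-5p, the member known for hearing loss, was barely detected. It had 0, 1 and 6 counts in C-exo replicates 1, 2 and 3 and 11, 7 and 4 counts in R-exo replicates 1, 2 and 3. C-exo replicate 3 lay above R-exo replicate 3, so the groups overlapped. These counts were too low for edgeR's filter and miR-96-5p was not among the 404 tested miRNAs. In CPM the means were 0.327 ± 0.460 in C-exo and 0.962 ± 0.415 in R-exo (SD, n = 3 each; exact two-sided permutation p = 0.2). The 22 counts of R-exo and 7 counts of C-exo gave a ratio of 2.94 per library size (exact 95% interval 1.22 to 8.16, which covers counting error only). Without C-exo replicate 3, C-exo held 1 count and the ratio was 12.9 (exact 95% interval 2.08 to 531). In mean CPM the log2 ratio was 1.56 with all libraries. Leaving out single libraries gave values from 0.996 (without C-exo replicate 1) to 3.92 (without C-exo replicate 3). No molecular identifiers are described, and PCR copies of a read are not independent molecules. With no filter on low counts, the log2 fold change of miR-96-5p was 1.46 (standard error 1.24, adjusted p = 0.63 in edgeR's quasi-likelihood test).

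**Figure D1:**
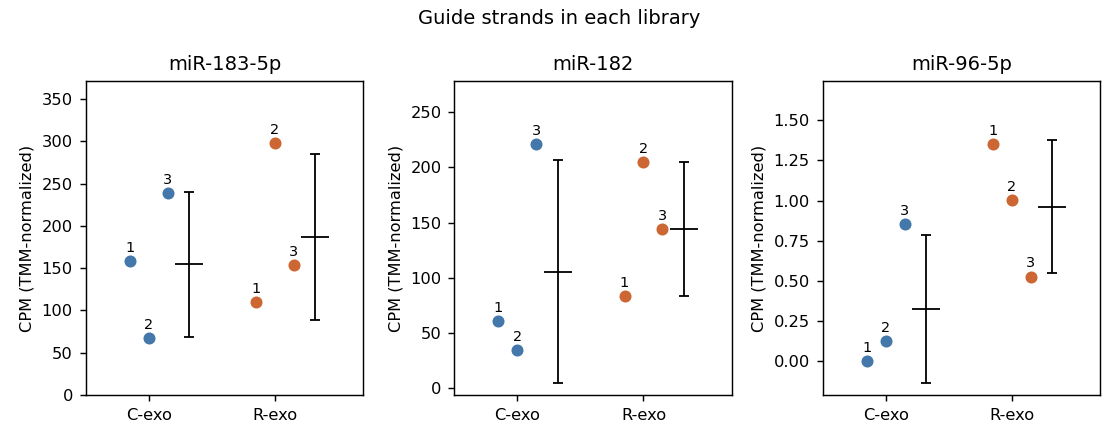
CPM (counts scaled to TMM-normalized library sizes, vertical axes) of the 3 guide strands in each library, with the replicate number beside each point and the group mean ± SD (n = 3) as a bar. The groups overlap in each panel: miR-182 reached 221 CPM in C-exo replicate 3, above the 205 CPM of R-exo replicate 2, and miR-96-5p stayed at or under 1.35 CPM.

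The order of the guides by level was miR-183-5p, miR-182 and miR-96-5p in every library. These are levels of reads on RNAs of 22, 25 and 23 bases, and the efficiency of adaptor ligation can differ between sequences. miR-183-5p made up between 51.5% and 72.3% of the reads of the 3 guides, miR-182 between 27.7% and 48.4%, and miR-96-5p at most 0.692%. Over all libraries there were 243 reads of miR-183-5p for each read of miR-96-5p, although their stem-loops are adjacent. Together the guides held between 0.0114% and 0.0503% of the reads of a library. By count miR-183-5p ranked between 113 and 182 among the 763 miRNAs of a library, miR-182 between 129 and 208, and miR-96-5p between 400 and 477. In mean CPM miR-183-5p (171 CPM) lay between miR-149-5p and miR-187-3p above it (188 and 172 CPM) and miR-125a-3p and miR-210-3p below it (169 and 152 CPM). miR-182 (125 CPM) lay between miR-125b-1-3p and miR-24-1-5p (126 and 125 CPM) and miR-434-3p and miR-200b-3p (124 and 122 CPM). Differences of this size lie within the SD of each guide within a group, which was over 60 CPM.

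Passenger strands were rarer still. miR-183-3p, the opposite arm of miR-183-5p, had 1, 0 and 2 counts in C-exo replicates 1, 2 and 3 and 5, 1 and 5 counts in the R-exo libraries. That is 14 counts in all, against 7044 of miR-183-5p, or 503 guide reads for each passenger read. miR-96-3p had 0 counts in all 6 libraries, which again allows up to 0.398 to 0.547 RPM a library. The 5p arm, known as the guide, thus made up nearly all reads of the miR-183 stem-loop.

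The balance between the abundant guides had a wider spread in C-exo than in R-exo. The number of miR-182 reads for each miR-183-5p read was 0.383, 0.524 and 0.926 in C-exo replicates 1, 2 and 3. It was 0.761, 0.688 and 0.940 in R-exo replicates 1, 2 and 3. C-exo replicates 1 and 2 were below all the other libraries, and C-exo replicate 3 fell within the range of R-exo. As log2 ratios the means were -0.81 ± 0.64 in C-exo and -0.34 ± 0.23 in R-exo (SD, n = 3 each), a difference of 0.47 (exact two-sided permutation p = 0.3, adjusted p = 0.6 over 6 ratios). The ratio of miR-96-5p to miR-183-5p was higher in R-exo by 1.51 and that to miR-182 by 1.04 on the log2 scale (exact permutation p = 0.3 and 0.5, both adjusted to 0.6). C-exo replicate 1 had 0 counts of miR-96-5p, so both differences depend on the 0.5 counts added before taking logs. With 1 count added they were 1.10 and 0.64. Without C-exo replicate 3 the differences of miR-182 to miR-183-5p, miR-96-5p to miR-183-5p and miR-96-5p to miR-182 were 0.82, 1.99 and 1.17, and 3 libraries against 2 cannot give an exact permutation p under 0.2. The first and second of these had groups that did not overlap without that library and reached this smallest p of 0.2 (exact permutation test). Leaving out C-exo replicate 1 instead lowered the 3 differences to 0.18, 0.76 and 0.58 in the same order. With 3 libraries a group the smallest p is 0.1, so these tests could not pass 0.05 whatever the ratios.

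Red blood cells are a main source of miRNA in plasma, and miR-451-5p is their most typical miRNA, made without Dicer from the cluster that also holds miR-144. It had 2023, 2250 and 4600 CPM in C-exo replicates 1, 2 and 3 and 3165, 6239 and 2060 CPM in R-exo replicates 1, 2 and 3. The libraries highest in miR-451-5p, R-exo replicate 2 and C-exo replicate 3, were also the highest in miR-183-5p and in miR-182. The log2 ratio of miR-183-5p to miR-451-5p was -4.33 ± 0.70 in C-exo and -4.33 ± 0.55 in R-exo (SD, n = 3 each; exact permutation p = 1.0). For miR-182 the ratio was higher in R-exo by 0.48 and for miR-96-5p by 1.52 (exact permutation p = 0.5 and 0.2, both adjusted to 0.6 over 6 ratios). With 1 count added in place of 0.5, the difference of miR-96-5p was 1.11. Without C-exo replicate 3 the differences for miR-183-5p, miR-182 and miR-96-5p were 0.042, 0.86 and 2.03, and the groups did not overlap for miR-96-5p (exact permutation p = 0.2, the smallest possible). The exact permutation test cannot give a p under 0.1 with 3 libraries a group, whatever the ratios. It therefore could not decide whether a guide and miR-451-5p changed unequally, which is a limit of this test.

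The ratio of miR-451-5p to miR-23a-3p, a usual measure of red-cell RNA released into plasma, also varied. On the log2 scale it was -0.36, -0.22 and 0.56 in C-exo replicates 1, 2 and 3 and -0.79, 0.88 and -0.82 in R-exo replicates 1, 2 and 3. It was above 0 only in C-exo replicate 3 and R-exo replicate 2, the libraries with the highest summed guides, 460 and 504 CPM. Among the other 4 libraries the sum did not follow the ratio: R-exo replicate 3 had the lowest ratio and the highest sum of these (298 CPM), and C-exo replicate 2 the highest ratio and the lowest sum (103 CPM). C-exo replicate 1 had 219 CPM and R-exo replicate 1 had 196 CPM. The part of red-cell RNA in the levels of the guides was not tested.

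**Figure D2:**
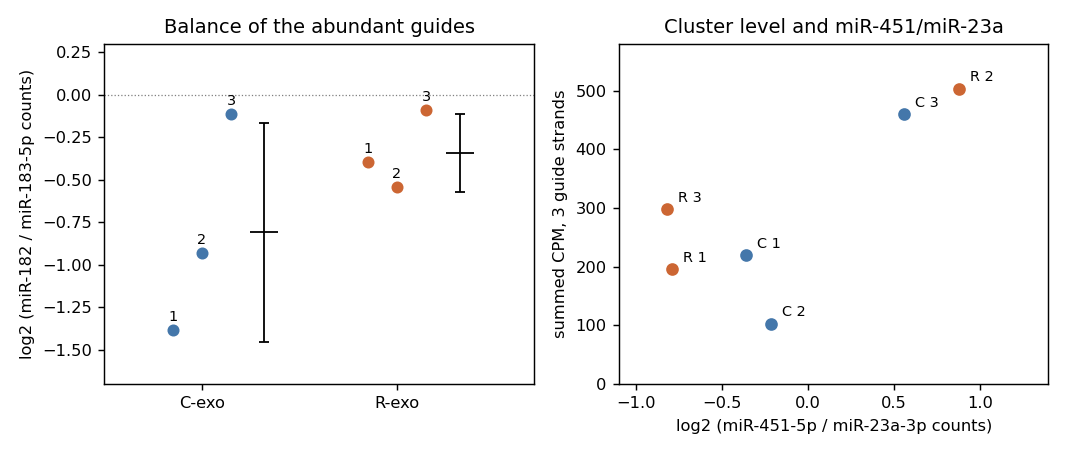
Left, log2 ratio of miR-182 to miR-183-5p counts in each library with group mean ± SD (n = 3). Right, summed CPM of the 3 guide strands (vertical axis) against the log2 ratio of miR-451-5p to miR-23a-3p counts (horizontal axis), 1 point a library. C-exo replicate 3 (460 CPM) and R-exo replicate 2 (504 CPM) stand at the upper right, the only libraries with a log2 ratio above 0.

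Lists of miRNAs typical of cells that express the cluster were set beside it. They were chosen with earlier results of these data known, so counts and signs within them are descriptive. The study itself had picked miR-144-3p, miR-203a-3p and miR-126a-3p from these libraries as raised in R-exo. The red-cell list had all 7 miRNAs tested, with 2 higher in R-exo by the criterion of the study (background 1.98%) and a median log2 fold change of 0.37, against -0.046 over all tested miRNAs. The 2 were both arms of miR-144, which is co-transcribed with miR-451. miR-144-3p had a log2 fold change of 1.07 and miR-144-5p one of 1.63 (adjusted p = 0.46 for each in edgeR's quasi-likelihood test). The most abundant miRNA of the list, miR-486, had 195795, 89943 and 64399 CPM in C-exo replicates 1, 2 and 3 and 40875, 68033 and 57599 CPM in R-exo. Its highest value was in C-exo replicate 1, which held 60.7 CPM of miR-182 and 0 counts of miR-96-5p but 159 CPM of miR-183-5p, the third highest of the 6 libraries. Next in level were miR-25-3p, with 7437 to 18638 CPM over the libraries, and miR-92a-3p, with 3313 to 12335 CPM. The summed CPM of the red-cell list was 218836, 103219 and 97349 in C-exo replicates 1, 2 and 3. It was 59979, 104201 and 77796 in R-exo replicates 1, 2 and 3, so the groups overlapped.

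The markers of sensory and neural tissue were a mixed group in these libraries. Of its 10 miRNAs 8 were tested and 0 met the criterion or had an unadjusted p under 0.05 in edgeR's quasi-likelihood test (background 9.41% for each), which in a list of 8 is near the background. In DESeq2, the exact test of edgeR and limma-voom 0 of the 8 also had an unadjusted p under 0.05 (background 12.4%, 11.1% and 12.4%). Among the tested, 4 had a log2 fold change above 0 and 4 below (background 48.8% above), and the median was -0.097. miR-124-3p, the defining miRNA of neurons, had at most 0.427 CPM. miR-211-5p and miR-204-5p, typical of pigmented epithelium of the eye, had at most 1.57 and 9.24 CPM. The abundant members of this list, miR-128-3p (11746 to 45930 CPM), miR-7a-5p (1441 to 3960 CPM) and miR-218a-5p (845 to 1146 CPM), are also expressed outside the nervous system. Between these were miR-138-5p (37.1 to 113 CPM), miR-129-5p (35.6 to 182 CPM) and miR-9a-5p (20.8 to 61.7 CPM), neural miRNAs whose levels overlapped the 35.2 to 221 CPM of miR-182.

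Among miRNAs of epithelial and endocrine cells all 8 were tested, 7 had a log2 fold change above 0 (background 48.8%) and the median was 0.95. By the criterion 1 was higher in R-exo (background 1.98%), miR-203a-3p, a skin keratinocyte miRNA, with a log2 fold change of 1.19. The most abundant of this list were miR-375-3p of endocrine cells (1652 to 5351 CPM), miR-203a-3p (1316 to 4483 CPM) and miR-200a-3p of epithelia (373 to 1789 CPM). Of the 7 platelet and leukocyte miRNAs, all tested, 1 was higher by the criterion (background 1.98%), miR-126a-3p with a log2 fold change of 1.34. The paper discusses miR-126a-3p for its roles in endothelial cells, so this miRNA is not a marker of blood cells alone. In this list 6 of 7 had a log2 fold change above 0 (background 48.8%) and the median was 0.86. An unadjusted p under 0.05 was given to 2 of 8 epithelial and endocrine and 2 of 7 platelet and leukocyte miRNAs by DESeq2, to 1 of each by edgeR's exact test, and to 4 and 3 by limma-voom. Of the 7 red-cell miRNAs these tools gave it to 2, 2 and 3 (background 12.4%, 11.1% and 12.4% for the tools in this order). Adjusted p-values of miR-203a-3p and miR-126a-3p were 0.46 (edgeR quasi-likelihood fit). Without C-exo replicate 3, higher levels in R-exo at an adjusted p under 0.05 were called for 2 of 7 red-cell, 1 of 8 sensory and neural, 5 of 8 epithelial and endocrine and 3 of 7 platelet and leukocyte miRNAs (edgeR quasi-likelihood fit; background 17.3%). Lower levels were called for 1 red-cell and 1 sensory and neural miRNA and for 0 of the other lists (background 14.0%). In that fit the medians of the lists were 0.84, 0.22, 1.48 and 0.90 in log2 fold change, against 0.013 over all miRNAs. Without R-exo replicate 2 they were -0.17, -0.044, 0.83 and 0.27, against -0.067 over all miRNAs, so the median of the red-cell list changed sign with the library left out.

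miR-142-5p, typical of leukocytes and abundant in this list, had 2444, 2321 and 18749 CPM in C-exo replicates 1, 2 and 3 and 8891, 24668 and 9242 CPM in the R-exo libraries. C-exo replicate 3 and R-exo replicate 2 were the highest for this arm, and the other members had other orders. miR-142-3p, from the other arm, was highest in R-exo replicates 1 and 3 (965 and 868 CPM) and had 359 CPM in C-exo replicate 3. The highest library was C-exo replicate 1 for miR-223-3p (793 CPM), C-exo replicate 3 for miR-150-5p (1833 CPM), R-exo replicate 1 for miR-146a-5p (12825 CPM) and R-exo replicate 3 for miR-126a-3p (30016 CPM) and miR-155-5p (36.5 CPM). The other abundant members were miR-126a-3p (4631 to 30016 CPM) and miR-146a-5p (7238 to 12825 CPM). Summed over the list, the CPM was 18880, 19034 and 46909 in C-exo replicates 1, 2 and 3 and 44709, 54914 and 48739 in R-exo replicates 1, 2 and 3. The part of leukocyte RNA in the levels of the guides was not tested.

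**Figure D3:**
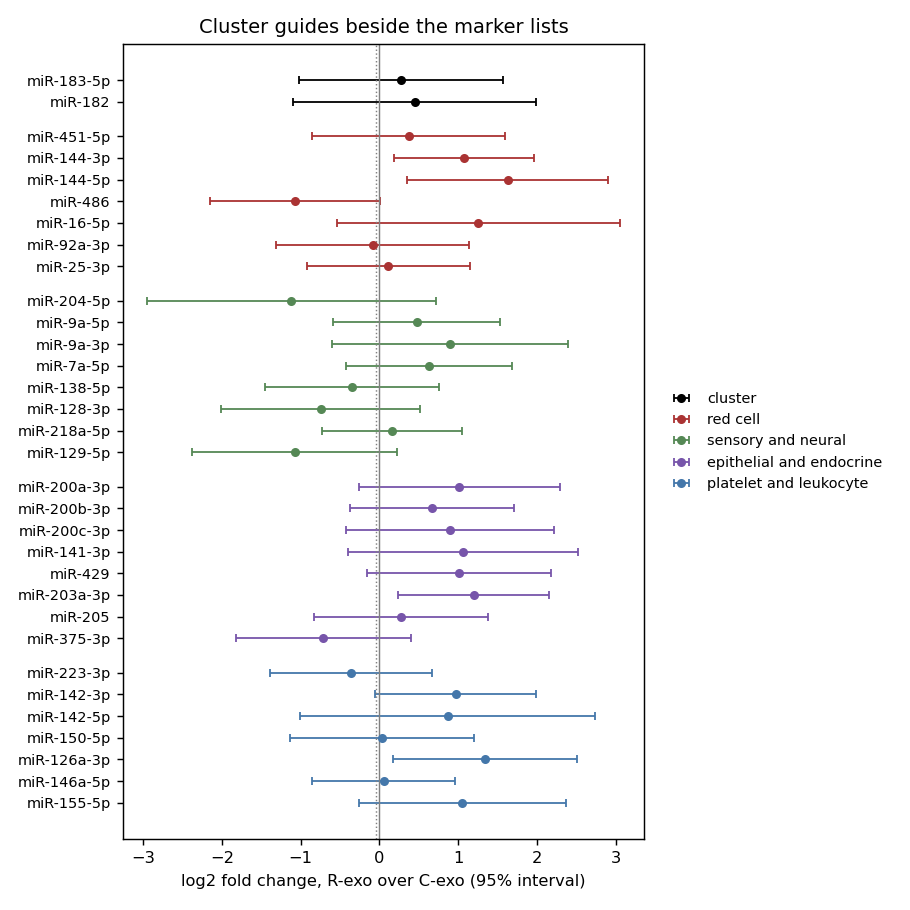
Log2 fold change of R-exo over C-exo (horizontal axis, points) with 95% interval (bars) from edgeR's quasi-likelihood fit on 3 libraries a group, for the tested cluster guides and the tested miRNAs of each list. The dotted line is the median of all tested miRNAs, -0.046. The intervals of miR-183-5p (-1.02 to 1.57) and miR-182 (-1.09 to 1.99) include 0.

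The 2 tested guides varied across libraries in a similar way. Centred on its own mean, their mean profile was -0.35, -1.36 and 0.87 in C-exo replicates 1, 2 and 3 and -0.38, 0.98 and 0.24 in R-exo replicates 1, 2 and 3, in log2 CPM. miR-183-5p had an SD of 0.77 over the 6 libraries and miR-182 one of 1.04, where the median of tested miRNAs was 0.74. The root mean square difference between the 2 profiles was 0.46 in log2 CPM, and 18 tested miRNAs were closer to miR-183-5p than miR-182 was.

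Outside the cluster, the profiles nearest to that mean were those of miR-361-5p, let-7f-1-3p, miR-92b-3p, miR-92a-3p and miR-365-3p, with root mean square differences of 0.21, 0.29, 0.32, 0.33 and 0.34 over the 6 libraries. The median over the tested miRNAs was 0.996. miR-361-5p, an intronic miRNA of the X chromosome, had 129, 83.1 and 364 CPM in C-exo replicates 1, 2 and 3 and 185, 432 and 312 CPM in R-exo, so that its highest libraries were those of the guides. miR-92a-3p, of the miR-17/92 cluster, is also on the red-cell list. With 6 libraries that share these differences in depth and makeup, likeness is a description of the libraries.

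**Figure D4:**
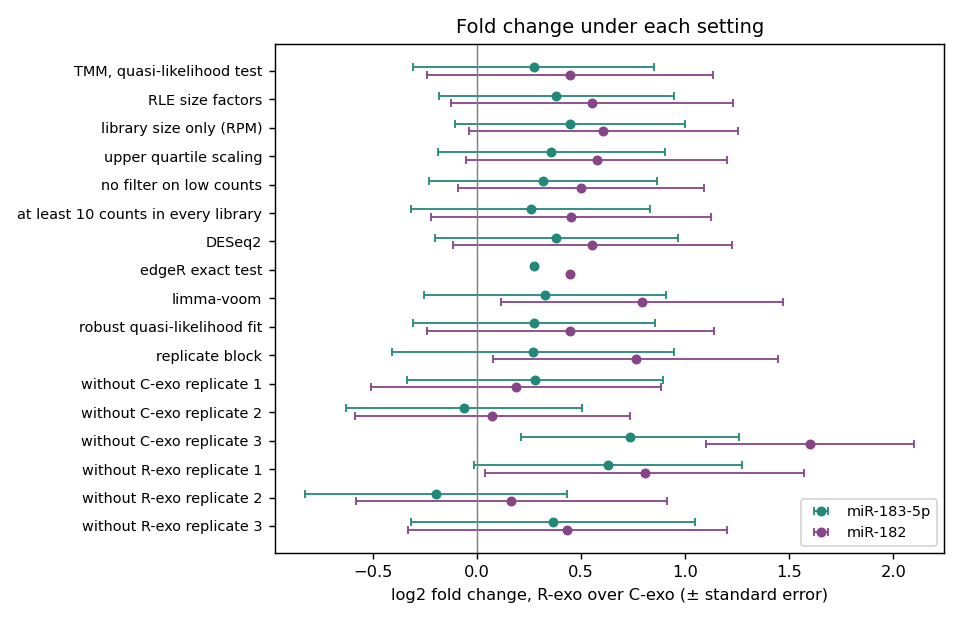
Log2 fold change of R-exo over C-exo (horizontal axis) of miR-183-5p and miR-182 under each processing setting (rows), with the standard error where the tool gives one. The fit without C-exo replicate 3 stands apart for miR-182, at 1.60 against 0.45 with all libraries.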

How the data were processed

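Small RNA libraries of plasma exosomes from C-exo and R-exo were sequenced by the authors on an Illumina HiSeq platform, with 3 libraries a group. The authors deposited raw counts of reads in each library for 763 mature rat miRNAs. The submitters' processing notes name bcl2fastq, BWA and rn6. Adaptor trimming, the mismatch rule and the treatment of multi-mapping reads are not given in the sources used here. The libraries were grouped by their labels.

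The analysis used edgeR 4.0.16 in R 4.3.3. The filterByExpr function, with a minimum count of 10 and a minimum total of 15, kept 404 of the 598 miRNAs that had a read. Groups were compared by the quasi-likelihood test on TMM-normalized counts with no other covariate, and p-values were adjusted over all 404 by the Benjamini-Hochberg method. Standard errors came from the fold change and its F statistic. Single values were compared by exact two-sided permutation tests (scipy 1.17.1), and ratios of counts had 0.5 added to both terms. Log2 CPM used a prior count of 2. The fit was run on simulated counts with known changes, at the dispersion of the data and at a lower one. The share of changes recovered is not given here, so the run does not show which changes the fit could miss. No pair of libraries agreed within sampling noise.

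Members and lists were chosen with earlier results of these data known. The miRNAs named were the members, their passenger strands, the 3 most abundant of each list, the 5 nearest profiles and 2 neighbours in level on each side. miR-451-5p and miR-23a-3p entered as planned ratios. The list members past the criterion, the sensory markers at low level and miR-3553 were named after their values were seen. Mature sequences matched 686 of the 763 names in the RefSeq table of GRCr8. The depth of 5484209 to 7531737 reads a library limits miR-96-5p, and intervals cover counting error only. Alternatives were other scalings (RLE, library size only, upper quartile), filters and tests (the exact test of edgeR, DESeq2 1.42.0, voom in limma 3.58.1, a robust fit), leaving out single libraries, and a replicate block. Figures were drawn with matplotlib 3.10.9.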

Additional observations from a re-analysis of the deposited data

How the results depend on the processing

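The log2 fold changes of miR-183-5p and miR-182 were above 0 in all 10 alternatives that kept the 6 libraries, from 0.26 to 0.45 and from 0.45 to 0.79, with adjusted p-values from 0.56 to 0.85 (edgeR, DESeq2 or limma). Leaving out single libraries gave ranges from -0.19 to 0.74 and from 0.075 to 1.60. Those of miR-183-5p below 0 were -0.061 without C-exo replicate 2 and -0.19 without R-exo replicate 2. For miR-182 only the fit without C-exo replicate 3 passed 0.05, with an adjusted p of 0.027 (edgeR's quasi-likelihood test). The summed level of the guides had a log2 ratio from 0.45 to 0.52 under 3 other scalings, against 0.35, and from -0.034 to 1.05 with libraries left out. The ratio of miR-183-5p to miR-451-5p ranged from -0.36 to 0.34 and was below 0 without C-exo replicate 2 (-0.36) and without R-exo replicate 3 (-0.28). The other 5 ratios stayed above 0 with libraries left out, and that of miR-96-5p to miR-182 ranged from 0.42 to 1.44. Ratios to miR-183-5p ranged from 0.18 to 0.82 for miR-182 and from 0.76 to 1.99 for miR-96-5p. Ratios to miR-451-5p ranged from 0.051 to 0.86 for miR-182 and from 1.10 to 2.03 for miR-96-5p. Leaving out single libraries moved the median log2 fold changes of the red-cell, sensory and neural, epithelial and endocrine, and platelet and leukocyte lists between -0.17 and 0.84, -0.15 and 0.22, 0.62 and 1.48, and 0.27 and 0.90. Over all miRNAs, 38 met the fold and p criterion, 63 without the filter on low counts (27 higher in R-exo), and 15 to 182 with libraries left out: 15 without C-exo replicate 1, 18 without C-exo replicate 2, 182 without C-exo replicate 3, 16 without R-exo replicate 2 and 15 without R-exo replicate 3. The cause was not tested. Library size alone gave 18 of 33 calls higher in R-exo. miR-144-3p, miR-144-5p, miR-203a-3p and miR-126a-3p lost the unadjusted p under 0.05 in 3, 1, 3 and 3 of the 6 fits that left out a library, where their log2 fold changes were 0.96 to 1.08, 1.35, 1.11 to 1.17 and 1.01 to 1.24, against 1.07, 1.63, 1.19 and 1.34 with all 6. Without C-exo replicate 3 miR-144-5p, miR-203a-3p and miR-126a-3p had 2.23, 1.45 and 1.998 (adjusted p = 0.0080, 0.017 and 0.0058, edgeR), and miR-144-3p had 1.07 (adjusted p = 0.060, edgeR). Of the 5 nearest profiles, 4 remained with library size only and 1 to 4 with a library left out, an alternative chosen after seeing the data. These alternatives also used another offset before taking logs, and its part in the change was not told apart.

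With the replicate number as a block, the log2 fold changes of miR-183-5p and miR-182 were 0.27 and 0.76 (adjusted p = 0.84 and 0.57, edgeR's quasi-likelihood test), and 38 miRNAs met the criterion, 25 higher in R-exo. No rat is in both groups, and the correlations across miRNAs of same-numbered libraries, each taken as a difference from its group mean, were 0.33, -0.28 and 0.28 for numbers 1, 2 and 3, so the numbers were not taken as pairs.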
